A study of Caenorhabditis elegans with 8 samples.

Results

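Ribosome-protected fragments of young adult C. elegans were turned into sequencing libraries by a commercial kit and by the submitters' own protocol, and both preparations are compared here CDS by CDS. A coding sequence (CDS) entered the comparison when its ribosome occupancy reached 1 RPKM (a read count scaled to the feature's length and the library's depth) in at least 2 of the 4 young-adult libraries. That rule kept 11569 of the 20505 CDS in the table, or 56.4%. At the edge of the rule, nspf-2, F18C12.4 and F08F8.6 entered with a second-highest value of 1.00 RPKM. The nearest CDS left out were nlp-82 at 0.99996 RPKM, sox-3 at 0.999 RPKM and F26A1.9 at 0.998 RPKM.

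All 4 libraries came from whole worms of the wild-type strain N2. The worms hatched overnight from prepared eggs and were raised to young adults on NGM plates seeded with NA22. Monosomes were isolated on a sucrose gradient for 2 libraries and on a MicroSpin S-400 HR gel filtration column for the other 2. Within each isolation method, 1 library followed the submitters' protocol, called in-house below, and 1 followed the ARTseq Ribosome Profiling Kit (Epicentre), called the kit below. All 4 titles carry the same number after the strain name and nothing in the labels names separate cultures, so the spread between them may be technical. The libraries held 32494131 reads for the in-house gradient, 25502243 for the in-house column, 38132794 for the kit gradient and 18018744 for the kit column.

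A translating ribosome shields a short stretch of its mRNA from nuclease, and counting the shielded fragments over a CDS measures how many ribosomes sit on it. Each fragment must first receive an adapter at both ends and be copied and amplified. In the in-house protocol, fragments were dephosphorylated at the 3′ end, joined to a 3′ adapter, phosphorylated at the 5′ end and joined to a 5′ adapter with TruSeq small RNA reagents. The labels name the kit's protocol without its steps.

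The kit and the in-house protocol gave different occupancies for a large share of CDS, and most of the differences were small. limma, fitted to log2(RPKM + 1) with isolation method as a second term, called 4152 CDS at a Benjamini-Hochberg adjusted p under 0.05, which is 35.9% of those tested. Of these, 2992 (25.9%) were higher in the kit and 1160 (10.0%) were lower. The median of all differences, kit minus in-house, was 0.10 on the log2 scale. With every library centred on its median the median difference was -0.02, 1663 CDS (14.4%) were called higher and 2012 (17.4%) lower, so the split of the calls turned from 72.1% higher to 45.3% higher. Both scalings called 2823 CDS in the same direction, 1663 of them higher and 1160 lower. Centring lowered every difference by the same amount. The 1663 are all the higher calls with centring, and the 1160 are all the lower calls as deposited. That overlap largely follows from the shift and adds no support.

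Among the calls, 3388 (81.6%) differed by less than 1.5-fold and 118 by more than 2-fold, 99 of them higher in the kit and 19 lower. The fit had 1 residual degree of freedom per CDS and borrowed its error from all CDS. Without the isolation term 6 CDS were called, with all 8 libraries of the series 0 (384 at an unadjusted p under 0.05), and with 1 young-adult library left out and no isolation term between 245 and 273.

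In single libraries, both kit libraries lay above both in-house libraries for 3837 CDS (33.2%) and below both for 1515 (13.1%). The difference had the same sign in the gradient pair and in the column pair for 9326 CDS, or 80.6%. Over all CDS tested, the differences of the 2 pairs correlated with a Pearson r of 0.740 (n = 11569 CDS), and over the 1311 CDS with a mean of at least 100 RPKM with an r of 0.954. These correlations are across CDS of the same 4 libraries, and CDS are not independent replicates. The spread over CDS of the preparation difference was 0.31 (SD, log2), against 0.28 for the difference between column and gradient and 0.24 for the disagreement of the 2 pairs (column pair minus gradient pair). Divided by 2, to match differences that are averages of 2 pairs, the disagreement had an SD of 0.12.

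**Figure D1:**
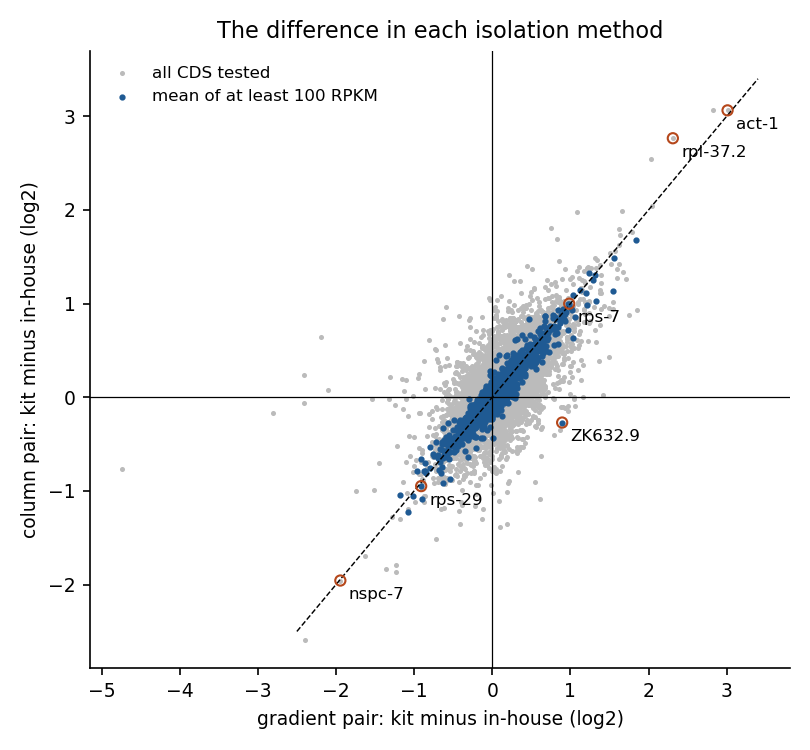
Each point is a CDS, placed by its log2 difference, kit minus in-house, in the gradient pair (horizontal) and in the column pair (vertical), with blue points for CDS of at least 100 RPKM on average and rings on the labelled CDS. The blue points follow the dashed line of equal differences (r = 0.954), and ZK632.9 lies on opposite sides of 0 in the 2 pairs.

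The most changed CDS among the well-occupied ones were short, and they came from several unrelated groups of proteins. They were taken as the top 15 called rises and the top 15 called falls that reached 100 RPKM in the higher preparation and kept their sign in both pairs. Of these 30, 27 had a feature length under 600 nt. In all 30, the 2 kit libraries lay entirely on one side of the 2 in-house libraries. The 30 were picked as the largest called differences, so this separation, here and below, is a description that adds no support. Of all 4152 called CDS, 3208 were separated in this way, and of all 11569 tested, 5352. Values below are given with the gradient library before the column library.

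The largest rise was that of act-1 (T04C12.6), an actin. It stood at 17.5 and 21.6 RPKM in the in-house libraries and at 148 and 188 RPKM in the kit libraries, a difference of 3.04 ± 0.05 (log2, limma SE) or 8.21-fold, with an adjusted p of 7.0e-05 in limma. The gap between preparations was far wider than that between the libraries of either one.

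Ribosomal proteins stood on both sides. The large-subunit gene rpl-37.2 (C54C6.1) had 24.5 and 19.6 RPKM in-house and 126 and 139 RPKM in the kit (2.54 ± 0.11). Its paralog rpl-37.1 had 870 and 648 RPKM in-house and 1992 and 1397 RPKM in the kit (1.15 ± 0.04). No label says how reads that match both paralogs were counted, so the split between them is uncertain. For the small subunit, rps-7 (ZC434.2) had 2558 and 1975 RPKM in-house and 5064 and 3949 RPKM in the kit (0.99 ± 0.03). All 3 were higher in both kit libraries than in either in-house library.

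The opposite was seen for rps-29, rpl-7A and rpl-18. The small-subunit gene rps-29 (B0412.4) stood at 10958 and 8053 RPKM in-house, the highest of the small-subunit genes, and at 5832 and 4172 RPKM in the kit (-0.93 ± 0.03). The large-subunit gene rpl-7A had 2749 and 2289 RPKM in-house and 1356 and 1103 RPKM in the kit (-1.04 ± 0.03). Its fellow rpl-18 had 6998 and 5134 RPKM in-house and 3857 and 2976 RPKM in the kit (-0.82 ± 0.03). In each case neither kit library reached the lower in-house library.

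Mitochondrial proteins also appeared on both sides. The gene tin-9.1, for a small chaperone of the intermembrane space that escorts membrane proteins, had 91.4 and 71.4 RPKM in-house and 217 and 181 RPKM in the kit (1.29 ± 0.04). The gene cox-7C (F26E4.6), for a subunit of cytochrome c oxidase, had 1731 and 1250 RPKM in-house and 763 and 605 RPKM in the kit (-1.11 ± 0.04). The mitochondrial ribosomal protein gene mrps-21 had 151 and 117 RPKM in-house and 83.3 and 66.6 RPKM in the kit (-0.83 ± 0.04). The libraries did not overlap between preparations for any of the 3.

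Genes for RNA-handling and chromatin proteins formed a further group. The gene lsm-3, for a subunit of the LSm rings that bind U6 snRNA or mRNA, had 116 and 88.8 RPKM in-house and 252 and 197 RPKM in the kit (1.13 ± 0.04). The gene nola-3, for a core protein of the particles that pseudouridylate RNA, had 973 and 671 RPKM in-house and 500.1 and 389 RPKM in the kit (-0.87 ± 0.05). The histone H3.3 gene his-72 had 459 and 325 RPKM in-house and 244 and 205 RPKM in the kit (-0.79 ± 0.06), and taf-13, for a subunit of the general transcription factor TFIID, had 185 and 146 RPKM in-house and 106 and 85.8 RPKM in the kit (-0.78 ± 0.04). The rise of lsm-3 and the falls of the other 3 were wider than the gaps between the gradient and column libraries.

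Peptide genes were among the most changed. Of the neuropeptide-like genes that the epidermis is known to induce on infection, nlp-33 had 60.6 and 66.5 RPKM in-house and 220 and 215 RPKM in the kit (1.76 ± 0.05). The related nlp-27 had 324 and 379 RPKM in-house and 951 and 833 RPKM in the kit (1.34 ± 0.10). A nematode-specific peptide gene, nspc-7 (C03G5.2), was the largest fall, with 108 and 111 RPKM in-house and 27.4 and 27.7 RPKM in the kit (-1.95 ± 0.04). The libraries of the 2 preparations did not overlap for any of the 3, and the pairs of nlp-27 disagreed in size, with 1.55 in the gradient pair and 1.13 in the column pair.

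The remaining rises were those of T27E9.2, msp-40, ZK813.3, B0513.4, ZK813.2, T04G9.7 and Y119D3B.21, between 1.06 for Y119D3B.21 and 1.52 for T27E9.2 on the log2 scale. The gene msp-40 encodes a major sperm protein, which forms the cytoskeleton of the crawling sperm. The remaining falls were those of drd-10, C18H9.2, W02D9.6, msrp-2, T23F2.5 and Y39A3CL.3, between -0.73 for Y39A3CL.3 and -1.15 for drd-10.

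**Figure D2:**
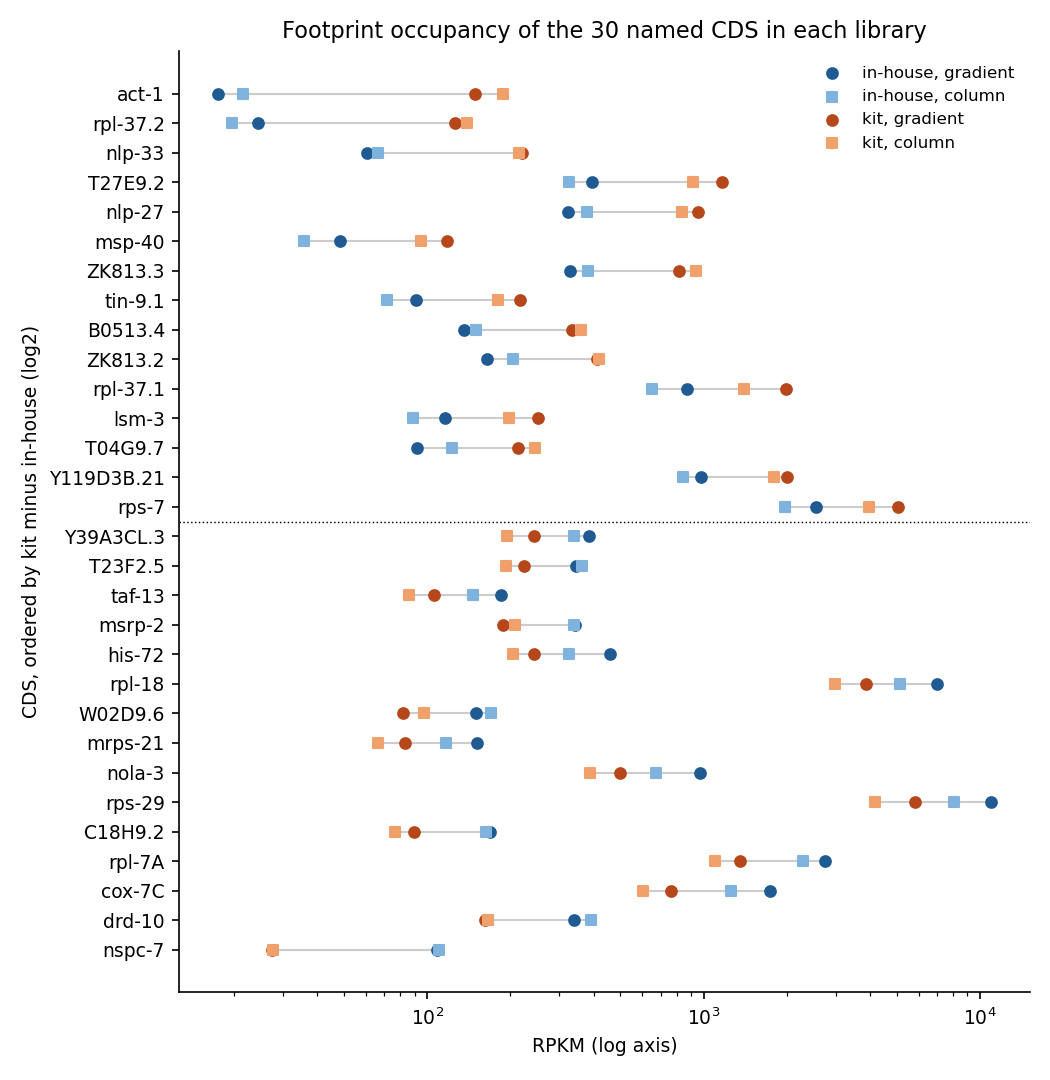
Occupancy in RPKM (log axis) of the 30 named CDS in each of the 4 libraries, ordered by the log2 difference between preparations, with rises above the dotted line and falls below it. The orange kit points and the blue in-house points do not overlap in any of the 30 CDS, and the largest gap is that of act-1, from 17.5 and 21.6 to 148 and 188 RPKM.

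Spread between preparations grew as the feature became shorter. Over the 1415 CDS of 2400 nt and longer, the difference between preparations had an SD of 0.17 (log2). It was 0.22 from 1200 to under 2400 nt (3705 CDS), 0.30 from 600 to under 1200 nt (3903 CDS), 0.42 from 300 to under 600 nt (2031 CDS) and 0.58 under 300 nt (515 CDS). The SD under 300 nt was 3.49 times that at 2400 nt and longer. Over the same 5 classes the difference between column and gradient stayed between 0.26 and 0.30. The disagreement of the 2 pairs, divided by 2, also grew, from an SD of 0.06 in the longest class to 0.22 in the shortest. The share of CDS called rose from 18.3% in the longest class to 53.6% in the shortest.

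CDS with a short feature also collect fewer reads, so the counting error of the same difference is given beside these values. Its median was 0.23 (log2) under 300 nt and 0.05 at 2400 nt and longer. Within the CDS of 1000 to under 10000 reads on average, where the median counting error was 0.03 in each length class, the SD of the preparation difference was still 0.58 under 300 nt (67 CDS) and 0.17 at 2400 nt and longer (621 CDS). In those CDS the SD of the isolation difference was 0.17 under 300 nt and 0.30 at 2400 nt and longer. Of the 118 calls over 2-fold, 100 lay under 600 nt (84.7%), where 22.0% of all tested CDS lay. This is a description over CDS with no test of its own.

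**Figure D3:**
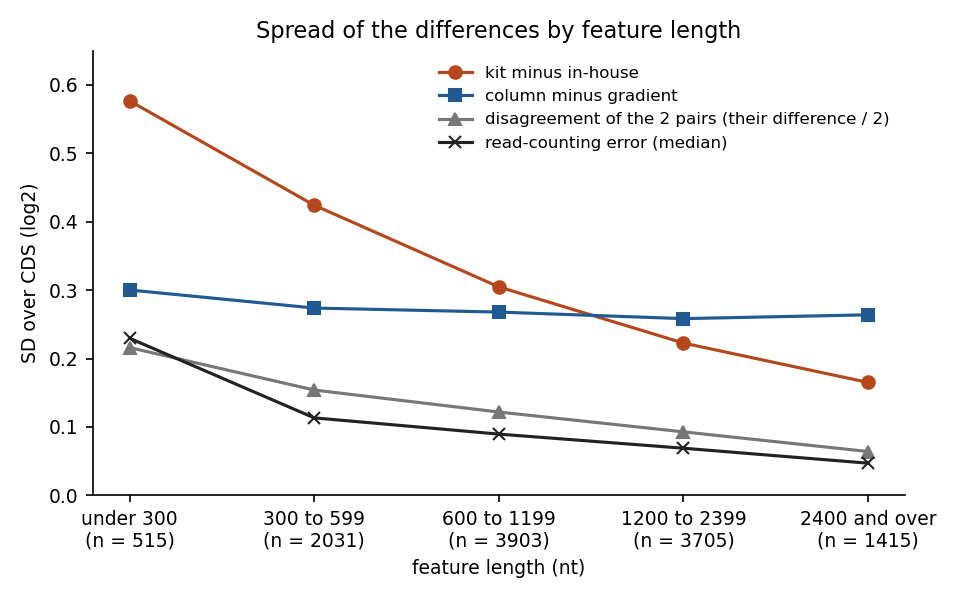
SD over CDS (log2) of the kit minus in-house difference, of the column minus gradient difference and of the disagreement between the 2 pairs divided by 2, with the median read-counting error, in 5 classes of feature length (nt). The orange line for the preparations goes from 0.58 under 300 nt to 0.17 at 2400 nt and longer, while the blue line for isolation stays between 0.26 and 0.30. The grey line for the disagreement of the pairs goes from 0.22 to 0.06.

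The most occupied CDS were more often lower in the kit. In the 197 CDS of at least 1000 RPKM on average, 44.2% were called lower and 26.9% higher, against 10.0% and 25.9% of all CDS tested. The median difference there was -0.06, against 0.11 between 1 and 10 RPKM. Of all reads in the table, these 197 CDS held 46.1% and 44.5% in the in-house libraries and 43.9% and 42.3% in the kit libraries, gradient before column.

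Among the 10 most occupied CDS, 7 were called lower and 1 higher. The elongation factor gene eef-1A.1, whose product brings aminoacyl-tRNA to the ribosome, had 14260 and 14376 RPKM in-house and 11299 and 11312 RPKM in the kit (-0.34 ± 0.03). The fatty acid and retinol binding protein gene far-2 had 6820 and 6288 RPKM in-house and 5074 and 4932 RPKM in the kit (-0.39 ± 0.03). In both genes the preparations lay further apart than the isolation methods did. With quantile normalization, which sets the most occupied CDS equal in all libraries, the difference of eef-1A.1 was 0.00.

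The falls of Y82E9BR.3 (-0.59), rps-23 (-0.37), dct-16 (-0.36) and rps-24 (-0.13) completed those 7 with rps-29. The large-subunit gene rpl-39 was the exception, with 6170 and 4270 RPKM in-house and 9020 and 6595 RPKM in the kit (0.59 ± 0.04). The yolk protein gene vit-6 had 7391 and 7689 RPKM in-house and 7118 and 7495 RPKM in the kit, and its difference of -0.05 did not pass the test (adjusted p = 0.290, limma). The cuticle collagen gene col-140 did not pass it either, at -0.07 (adjusted p = 0.151, limma). For rps-24, vit-6 and col-140 the libraries of the 2 preparations overlapped.

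Subunits of one complex are made in similar amounts in many organisms, and their occupancies per length lay closer together in the kit for most of the complexes examined. Small-subunit ribosomal proteins (30 CDS) spread with an SD of 0.56 and 0.52 (log2(RPKM + 1)) in the in-house libraries and of 0.36 and 0.33 in the kit libraries. The 70 mitochondrial ribosomal proteins spread with 0.55 and 0.49 in-house and 0.43 and 0.35 in the kit. The 14 subunits of the 20S proteasome core spread with 0.30 and 0.34 in-house and 0.20 and 0.21 in the kit. In all 3, both kit libraries lay below both in-house libraries.

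That was so for 6 of 7 complexes by the SD, with the Sm and LSm proteins pooled as 1 of them. By the median absolute deviation (MAD), which a few extreme members do not move, it was so for 5 of 7. The 46 large-subunit CDS had a MAD of 0.44 and 0.41 in-house and of 0.17 and 0.19 in the kit. Their SD was 2.03 and 1.99 in-house and 1.85 and 1.79 in the kit. The MAD of the small-subunit CDS differed less, with 0.34 and 0.35 in-house and 0.32 and 0.26 in the kit. For the 20S core it was 0.20 and 0.23 in-house and 0.17 and 0.17 in the kit. The mitochondrial ribosomal proteins had a MAD of 0.38 and 0.31 in-house and of 0.25 and 0.21 in the kit. The 14 Sm and LSm proteins, pooled from separate rings, had a MAD of 1.11 and 1.11 in-house and of 0.69 and 0.74 in the kit. In every library all their snr genes lay above the pooled median and all their lsm genes below it. Their spread therefore includes the gap between Sm and LSm genes and is not evenness within 1 complex. The 19S regulatory particle of the proteasome (19 CDS) went the other way, with a MAD of 0.14 and 0.10 in-house and 0.19 and 0.19 in the kit. The CCT chaperonin (8 CDS) overlapped by the MAD, with 0.09 and 0.17 in-house and 0.10 and 0.04 in the kit. By the SD it counted as lower by a narrow margin, with 0.153 and 0.163 in-house and 0.151 and 0.068 in the kit. Over all tested CDS the SD was 2.24 and 2.21 in-house and 2.22 and 2.19 in the kit. The MAD over all tested CDS was also slightly lower in both kit libraries, with 1.503 and 1.499 in-house and 1.490 and 1.474 in the kit.

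By member, 32 of 46 large-subunit proteins (69.6%), 48 of 70 mitochondrial ribosomal proteins (68.6%) and 19 of 30 small-subunit proteins (63.3%) lay nearer the median of their complex in the kit. The count was 10 of 14 for the pooled Sm and LSm proteins, 8 of 14 for the proteasome core, 6 of 8 for CCT and 8 of 19 for the 19S particle. No test of these counts was made, because subunits of one library share that library.

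Pairs of subunits give the values behind these spreads. In each complex the pair is the called subunit with the largest fall and the one with the largest rise, so the ratio had to drop in the kit, and the values are a description that adds no support. The occupancy of rps-29 was 4.28 and 4.08 times that of rps-7 in-house, and 1.15 and 1.06 times in the kit. The occupancy of mrps-21 was 4.42 and 2.94 times that of mrps-12 in-house, and 1.02 and 0.812 times in the kit. For snr-4, an Sm protein, over lsm-3, which belongs to the separate LSm rings, the ratio was 5.58 and 5.60 in-house and 1.58 and 1.60 in the kit. For rpl-7A over the little occupied rpl-37.2 it was 112 and 117 in-house and 10.8 and 7.93 in the kit.

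The other pairs started closer together. The proteasome core subunit genes pas-3 and pbs-1 stood at a ratio of 1.78 and 2.04 in-house and of 0.768 and 0.990 in the kit. For cct-6 over cct-2 it was 1.13 and 1.30 in-house and 0.835 and 0.988 in the kit. In the 19S particle, rpn-13 over rpn-3 went from 1.10 and 1.01 in-house to 0.747 and 0.678 in the kit, further from equal in both pairs.

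**Figure D4:**
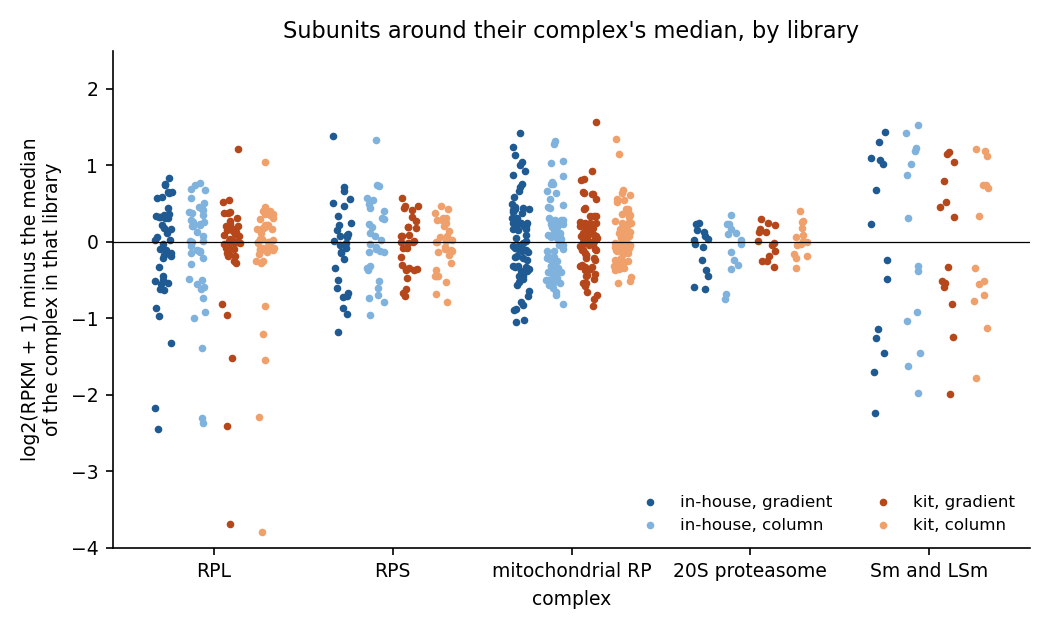
Each point is a subunit's log2(RPKM + 1) minus the median of its complex in the same library. There are 4 libraries and 5 complexes, with the Sm and LSm proteins pooled as 1. The 2 in-house libraries (blue) stand left of the 2 kit libraries (orange), with a small sideways jitter. The orange points of the small ribosomal subunit have an SD of 0.36 and 0.33 against 0.56 and 0.52 for the blue ones; values under the lower end of the axis, of rpl-42, rpl-37.2 and in-house rpl-23A.1, are not drawn.

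Calls in gene lists are given beside the shares over all CDS tested, 25.9% higher and 10.0% lower as deposited and 14.4% and 17.4% with median centring. While single ribosomal protein genes moved up and down, the sums of their deposited RPKM hardly differed between preparations. The sums were not recalculated with median centring, which lowers every kit minus in-house difference by the same amount. Of the 46 large-subunit CDS, 21 were higher in the kit and 16 lower, over a range from -1.04 to 2.54. Their summed RPKM differed by -0.01 (log2) in the gradient pair and 0.01 in the column pair. Of the 30 small-subunit CDS, 10 were higher and 11 lower, over a range from -0.93 to 0.99, and their sum differed by -0.05 and -0.03. The SD of the preparation difference was 0.59 over the large-subunit and 0.43 over the small-subunit CDS, against 0.31 over all tested. The SD of the isolation difference in the same CDS was 0.12 and 0.11, against 0.28 over all tested. The median differences of both lists, 0.06 and 0.00, were -0.05 and -0.11 with median centring and 0.12 and 0.16 with quantile normalization.

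Mitochondrial ribosomal proteins were called higher in 34 of 70 CDS and lower in 13, with a median of 0.14 against 0.10 for all tested. The largest rise was that of mrps-12, from 34.1 and 39.9 RPKM in-house to 81.3 and 82.0 RPKM in the kit (1.12 ± 0.06). With median centring 20 were higher and 19 lower. Of 45 nuclear genes for oxidative phosphorylation, 14 were higher and 12 lower, with a median of -0.01, and 6 higher and 16 lower with median centring. The ATP synthase beta subunit gene atp-2 had 1934 and 1839 RPKM in-house and 2134 and 2122 RPKM in the kit (0.17 ± 0.03), a rise that was not called with median centring (adjusted p = 0.245, limma).

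The import machinery of mitochondria had 6 of 13 CDS higher and 2 lower, and 6 higher and 5 lower with median centring. The gene tomm-7, for a small subunit of the outer membrane translocase, had 153 and 134 RPKM in-house and 301 and 268 RPKM in the kit (0.98 ± 0.04). Its larger partner tomm-22 rose by 0.37, and the small inner-membrane import chaperone gene ddp-1 fell by 0.47. The list's summed RPKM was higher in the kit by 0.24 in the gradient pair and by 0.16 in the column pair. Large rises were also seen for mitochondrial proteins at lower occupancy. The gene glrx-5, for a glutaredoxin of iron-sulphur cluster assembly, had 25.0 and 21.4 RPKM in-house and 106 and 91.3 RPKM in the kit (2.05 ± 0.05), and dnj-21, for a DnaJ protein of the import motor, rose by 1.35.

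Proteins of acidic vesicles and of the secretory route were called in both directions. Of 21 subunits of the V-ATPase, the pump that acidifies vesicles, 6 were higher and 7 lower, with 2 higher and 7 lower with median centring. The gene vha-2, for a proton-carrying ring subunit, had 1476 and 1738 RPKM in-house and 1009 and 1101 RPKM in the kit (-0.60 ± 0.04), and the small membrane subunit gene vha-17 fell by 0.64. The large membrane subunit gene unc-32 rose by 0.52. Of 15 CDS of the translocon and its partners, 4 were higher and 6 lower, with 1 higher and 6 lower with median centring. The gene sec-61.G, for the smallest subunit of the Sec61 channel, had 1949 and 1463 RPKM in-house and 1157 and 949 RPKM in the kit (-0.69 ± 0.04).

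Cathepsins and aspartyl proteases, the digestive and lysosomal proteases of the worm, had 11 of 21 tested CDS (of 29 in the table) lower and 3 higher, with a median of -0.16. The aspartyl protease gene asp-1 had 2835 and 3095 RPKM in-house and 1927 and 2339 RPKM in the kit (-0.48 ± 0.05). The genes asp-3 and asp-6 fell by 0.53 and 0.43, and the cathepsin Z gene cpz-1 rose by 0.24. The summed RPKM of the list was lower in the kit by 0.25 in the gradient pair and 0.23 in the column pair, written as log2. With median centring 11 were lower and 1 higher.

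Collagens of the cuticle had 26 of 98 tested CDS (of 178 in the table) lower and 5 higher, with a median of -0.15, and 41 lower and 3 higher with median centring. The abundant col-20 had 5090 and 6349 RPKM in-house and 3838 and 4597 RPKM in the kit (-0.44 ± 0.03). The largest fall was that of col-94 (-0.80) and the largest rise that of col-12 (0.60), both at a lower occupancy. Tubulins had 5 of 13 CDS lower and 0 higher, with a median of -0.12. Translation elongation factors had 3 of 6 CDS lower and 0 higher, with a median of -0.14, with 6 lower under median centring and 1 lower under quantile normalization.

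Several lists of low-occupied genes held few lower calls, and the centring of the libraries moved their counts. Nuclear hormone receptors, of which the table held 278, had 21 tested CDS higher and 1 lower, which is 17.6% and 0.840%, so fewer were called in either direction than over all CDS. Their median was 0.19, with 8 higher and 4 lower with median centring. Cytochromes P450 and UDP-glucuronosyltransferases, enzymes that modify foreign compounds, had 27 of 80 CDS (of 141) higher and 1 lower, with a median of 0.17, and 11 higher and 7 lower with median centring. C-type lectins had 26 of 88 CDS (of 253) higher and 3 lower, which is 29.5% and 3.41%, with a median of 0.14, and 12 higher and 8 lower with median centring. With median centring the medians of the 3 lists were 0.08, 0.05 and 0.02.

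Peptide genes spread more widely. Neuropeptide and insulin-like genes had 33 of 122 tested CDS (of 151 in the table) higher and 11 lower, close to the shares of all CDS, with a median of 0.10 that turned to -0.02 with median centring. Their summed RPKM was nevertheless higher in the kit by 0.55 in the gradient pair and by 0.39 in the column pair (log2). The sum went from 2396 and 2505 RPKM in-house to 3502 and 3285 RPKM in the kit. Most of that rise lay in nlp-27, nlp-33 and nlp-24 and not in the list at large. Of these, nlp-27 went from 324 and 379 to 951 and 833 RPKM, and nlp-33 from 60.6 and 66.5 to 220 and 215 RPKM. Beside nlp-27, the well-occupied nlp-24 had 383 and 415 RPKM in-house and 662 and 611 RPKM in the kit (0.67 ± 0.06), and nlp-40, a peptide that the gut releases in the defecation rhythm, rose by 0.26. The FMRFamide-like peptide gene flp-10 went the other way, from 40.7 and 42.3 RPKM in-house to 18.8 and 17.9 RPKM in the kit (-1.13 ± 0.06).

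Antimicrobial peptide and lysozyme families had 21 of 60 tested CDS (of 97 in the table) higher and 11 lower, which is 35.0% and 18.3%, and 17 higher and 15 lower with median centring. The saposin-like genes spp-5 and spp-17 rose by 0.68 and 0.79, with spp-17 at 817 and 1003 RPKM in-house and 1459 and 1691 RPKM in the kit. The lysozyme gene ilys-5, the most occupied of the list, had 3978 and 4296 RPKM in-house and 3407 and 3754 RPKM in the kit (-0.21 ± 0.03). Members at few RPKM stood furthest apart, with fipr-11 at 1.52 and fipr-5 at -1.12. The range over the list was therefore wide in both directions.

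Several families hold near-identical copies, and no label says how reads that match more than one of them were counted, so the values of their single members are uncertain. Actins are such a family. The most occupied member, act-4, had 1104 and 1251 RPKM in-house and 1350 and 1508 RPKM in the kit (0.28 ± 0.03). The gene act-2 had 939 and 995 RPKM in-house and 1059 and 1065 RPKM in the kit, a difference of 0.14 that was called, but not with median centring (0.02, adjusted p = 0.707, limma).

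The intestinal actin act-5 had 624 and 644 RPKM in-house and 798 and 786 RPKM in the kit (0.32 ± 0.04). The gene act-3, named after its values were seen to complete the family, had 98.8 and 101 RPKM in-house and 158 and 185 RPKM in the kit (0.77 ± 0.06). Together with act-1 all 5 actins passed as higher, and 4 of them with median centring. The summed RPKM of the 5 went from 2783 and 3013 in-house to 3514 and 3731 in the kit, a difference of 0.34 and 0.31 (log2) against 3.04 for act-1 alone.

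**Figure D5:**
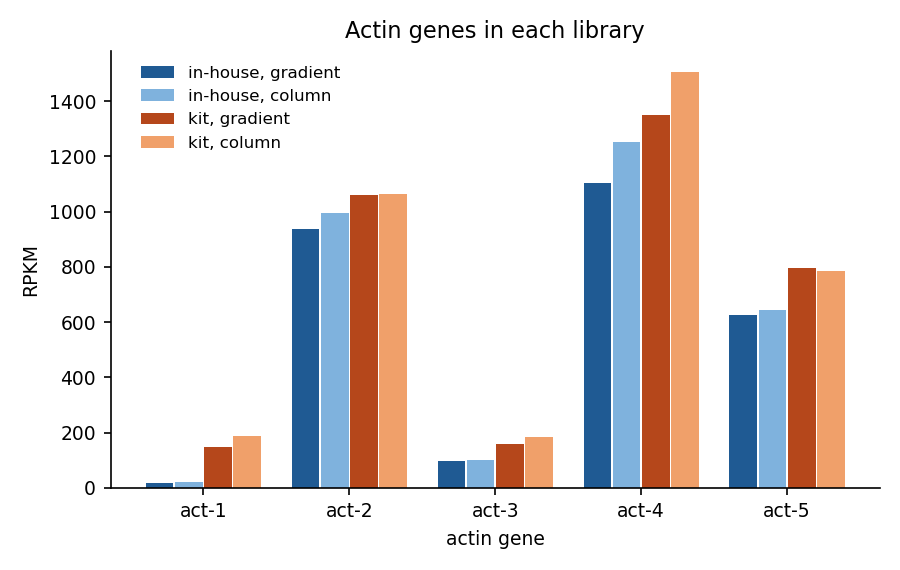
Occupancy in RPKM of the 5 actin genes, with 1 bar for each library and no error bars because each combination of isolation and preparation is 1 library. The bars of act-1 go from 17.5 and 21.6 to 148 and 188 RPKM, while those of act-2 go from 939 and 995 to 1059 and 1065 RPKM.

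Major sperm proteins had 11 of 25 tested CDS (of 30 in the table) higher and 8 lower, with 9 higher and 12 lower under median centring, over a range from -0.81 to 1.68 and with an SD of 0.74. The gene msp-81 had 20.1 RPKM on average in-house and 66.4 RPKM in the kit (1.68 ± 0.05). The gene msp-53 had 64.8 and 47.9 RPKM in-house and 37.8 and 25.9 RPKM in the kit (-0.81 ± 0.05). The most occupied member, msp-64, rose by 0.24 with overlapping libraries, and was not called with median centring (0.13, adjusted p = 0.0566, limma). The summed RPKM of the family differed by 0.13 in the gradient pair and 0.20 in the column pair.

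Nematode-specific peptide families nspa, nspb, nspc and nspe had 8 of 21 tested CDS (of 48 in the table) higher and 6 lower, or 6 and 6 with median centring, with the widest SD of the 35 lists apart from the actins, 0.88. The gene nspc-2 had 24.1 and 36.3 RPKM in-house and 3.77 and 5.19 RPKM in the kit (-2.49 ± 0.08). The gene nspc-13 had 5.43 and 7.56 RPKM in-house and 13.3 and 19.4 RPKM in the kit (1.20 ± 0.07). The well-occupied members nspc-4 and nspc-10 moved less, by -0.31 and 0.33. The sum of the families differed by -0.06 and -0.21.

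Histones had 20 of 38 tested CDS (of 79 in the table) higher and 7 lower, with a median of 0.26. With median centring 16 were higher and 11 lower, and the median was 0.14. The largest fall was that of his-48, from 114 and 80.0 RPKM in-house to 52.6 and 39.0 RPKM in the kit (-1.06 ± 0.05). Their summed RPKM differed by 0.01 and 0.05, and the median and the sum therefore gave different pictures of the same family. In the histones and the ribosomal proteins, single members moved over a wide range while the sum of deposited RPKM stayed within 0.05 of 0. The sum of the nematode-specific peptides did not stay as close, at -0.21 in the column pair.

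Genes of the oocyte and embryo were called in both directions. Of 46 germline RNA-binding proteins, 18 were higher and 4 lower, which is 39.1% and 8.70%, and 9 were higher and 6 lower with median centring. The helicase gene cgh-1, of germline RNA granules, had 1699 and 1721 RPKM in-house and 2038 and 2022 RPKM in the kit (0.25 ± 0.03). The Y-box protein genes moved apart, with cey-1 at a mean of 115 RPKM in-house and 212 RPKM in the kit (0.87 ± 0.04) and cey-3 at 1083 and 920.0 RPKM in-house and 676 and 537 RPKM in the kit (-0.73 ± 0.04). Of 20 eggshell and egg surface proteins, 9 were higher and 3 lower, and 5 higher and 6 lower with median centring. The extremes were those of the chondroitin proteoglycan gene cpg-9 at 0.92 and its relative cpg-3 at -0.51.

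Markers of the worm's tissues were measured in all 4 libraries, with 28 of 31 tested, 9 higher in the kit and 5 lower. The summed RPKM of the 6 intestinal markers was 15706 and 16322 in-house and 15595 and 16497 in the kit. That of the 6 germ-line markers was 2985 and 2987 in-house and 3416 and 3384 in the kit. The 5 muscle markers summed to 1144 and 1366 RPKM in-house and 1056 and 1258 RPKM in the kit. The 4 tested sperm markers, with a median difference of 0.39, summed to 81.8 and 64.1 RPKM in-house and 106 and 93.5 RPKM in the kit. They did not move together: msp-3 (0.60) and msp-10 (1.43) were called higher, ssp-9 (-1.26) was called lower and spe-11 (0.18) was not called. The 3 tested markers of hypodermis and cuticle summed to 11691 and 16042 RPKM in-house and 11028 and 14510 RPKM in the kit, and the 4 of neurons to 221 and 167 RPKM in-house and 210 and 175 RPKM in the kit.

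The pairs disagreed for a few well-occupied CDS. The largest disagreement at a mean of at least 100 RPKM was that of ZK632.9, with 405 and 805 RPKM in-house and 753 and 668 RPKM in the kit, which is 0.89 in the gradient pair and -0.27 in the column pair. The other 4 were nlp-26, nlp-27, ril-1 and C04H5.7. The gene ril-1 had 431 and 476 RPKM in-house and 882 and 737 RPKM in the kit (0.83 ± 0.09) and was called. The differences of ZK632.9, nlp-26 and C04H5.7 did not pass the test, with adjusted p-values of 0.376, 0.159 and 0.0674 in limma.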

How the data were processed

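The deposited values are RPKM for each CDS and library, made by the authors from reads, feature length and library size. The submitters' processing notes give no roles for STAR 2.4, Bowtie2 2.2.4 and bcl2fastq 1.8.4. The genome build, the annotation and the treatment of reads with several matches are not stated in the labels. The step size of each CDS's RPKM gave back its read count, its length and the library total. Within 0.001 read, counts were whole for all 19649 CDS above 0, and 856 were at 0 throughout. Depth ranged from 18018744 to 38132794 reads, and counting errors come from these reads. PCR copies are not independent molecules, so they cover counting error only.

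The 4 young-adult libraries were grouped by their titles and compared with limma 3.58.1 in R 4.3.3 on log2(RPKM + 1), with terms for preparation and isolation, eBayes with an abundance trend and a two-sided Benjamini-Hochberg threshold of 0.05. The isolation term pairs each kit library with the in-house library of the same isolation method. The fit was also run on data simulated under its own noise model. Such data cannot test that model, and no conclusion is drawn from them. Fold changes on this scale understate those of low CDS. Tables were made in Python 3.11.15 (pandas 2.3.3, numpy 2.4.6).

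Named CDS were the 15 largest rises and falls at 100 RPKM, the 10 largest at 10 RPKM (only members of a described family are printed), the 10 most occupied, the 3 most occupied and the largest called rise and fall of each of 35 lists (not all printed), the CDS nearest the filter and the 5 with the largest disagreement of the pairs. The CDS, lists and tests were chosen with earlier results of these data known. Sequence names were matched to gene symbols in a RefSeq table of assembly WBcel235, with 20051 matched and 454 not. Planned descriptions by protein sequence and the naming of CDS with identical proteins were not run, because no protein table was used. Alternatives were other pseudocounts, filters, scalings, variance models, model terms, sets of libraries, voom on the recovered reads and leaving out each library.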

Additional observations from a re-analysis of the deposited data

Results flagged for a closer look

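Among the gene lists and the CDS named here, 6 results stood out because the kit minus in-house difference had opposite signs in the gradient pair and the column pair. Each pair holds 1 library per preparation, and the difference between the pairs was not tested. Values are log2, and the disagreement is column pair minus gradient pair. For ZK632.9 it was -1.16, from 0.89 to -0.27, and for nlp-26 it was -0.44, from 0.00 to -0.43. The median of the major sperm proteins went from -0.11 to 0.17, a disagreement of 0.28. The median of the translocon list went from 0.10 to -0.06, a disagreement of -0.15. The medians of the small-subunit ribosomal proteins and of the 19S particle lay near 0 in both pairs and disagreed by 0.017 and -0.037.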

How the results depend on the processing

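The counts depended on the scaling and on the pairing. Against 4152 calls, 2992 higher and 1160 lower, quantile normalization gave 1795 higher and 1875 lower, median centring 1663 and 2012, and no abundance trend 2626 calls (1994 and 632). Without the isolation term 6 CDS were called (5 and 1), with all 8 libraries 0 (0 and 0; 384 at an unadjusted p under 0.05), and with 1 L4 library left out of those 8, 4 (3 and 1). Leaving out 1 library, which also drops the isolation term, gave 245 to 273 calls, 166 to 237 higher and 34 to 94 lower. Pseudocounts, filters and voom kept the counts within 1.5 times.

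The ratio of spread between the shortest and longest CDS, 3.49, was 3.93 and 3.31 with pseudocounts of 0.1 and 5, 3.70 with voom, 2.77 to 2.92 without 1 library and 1.29 between classes of mean reads in place of length. The change in spread over small-subunit proteins, -0.20 by the SD, was -0.059 by the MAD.

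Signs turned for few named CDS. With quantile normalization eef-1A.1 was at 0.00, vit-6 at 0.24, col-140 at 0.12 and rps-24 at 0.16. Without 1 library, rps-24 ranged from -0.32 to 0.073, col-140 from -0.26 to 0.13 and ZK632.9 from -0.18 to 0.81. The cause was not tested. Of the 93 CDS followed by name, 83 lost their call without the isolation term, 88 with all 8 libraries and 49 to 57 without 1 library and the isolation term. No protein-based result was run.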
